A study of Mus musculus with 12 samples.

Results

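ATAC-seq peaks that lie inside exons, more than 1000 bp from the nearest annotated transcription start site, were compared between wild-type (WT) and SgshKO mice in 3 sorted brain populations. A peak was taken when the authors' annotation placed it in an exon and its distance to the start site was over 1000 bp in either direction. The rule found 9179 of 281974 peaks (3.26%). Of these, 2044 of 91770 were in the microglia table (2.23%), 4325 of 107627 in the NeuN+ table (4.02%) and 2810 of 82577 in the Olig2+ table (3.40%). The 3 tables hold peaks defined apart and were kept apart. The annotation lists untranslated regions as classes of their own, so these peaks lie in the remaining exon sequence of the transcript it names.

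The study sorted cells and nuclei from the forebrain of C57BL/6 mice aged 4 months, either WT or SgshKO. The groups were WT and SgshKO microglia (live cells positive for CD11b and CX3CR1 with low CD45), WT and SgshKO neurons (NeuN+ nuclei negative for PU.1 and OLIG2) and WT and SgshKO oligodendrocyte-lineage nuclei (Olig2+, negative for PU.1 and NeuN). Each of the 6 groups had 2 libraries. The nuclei were lightly fixed with formaldehyde and the microglia were not. How Sgsh was inactivated, the sex, and any pooling or batch of animals were not stated in the sources, so p-values measure only the spread between these libraries, which may be technical.

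ATAC-seq counts insertions of the Tn5 transposase, which cuts DNA where nucleosomes are displaced. Most such sites are promoters and the intronic and intergenic enhancers around them, but an exon can be open too: some exons carry enhancer sequence that acts on the host gene or on a neighbour, and some hold the start site of a second transcript. Coding exons are typically short, rich in G and C, and under constraint from the protein they encode. Sgsh encodes sulfamidase, a lysosomal enzyme that removes sulfate from heparan sulfate, and its loss is the cause of mucopolysaccharidosis IIIA (Sanfilippo syndrome type A), a childhood neurodegenerative disease.

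The sequences that the deposited coordinates could be matched to are shown first, because they show exonic peaks that sit on a start site of another transcript. RefSeq start-site windows of assembly GRCm38.p6 (250 bases before to 50 after the start) were available here, and no genome was used, so peaks away from them have no sequence below. A RefSeq start site lay inside 18 of the 2044 microglial exonic peaks (0.881%), 27 of the 4325 NeuN+ ones (0.624%) and 13 of the 2810 Olig2+ ones (0.463%). The share was 0.603%, 0.556% and 0.585% for intronic peaks and 9.43%, 8.83% and 10.1% for all peaks of those tables. There were 46 such windows, of which 40 belong to genes with Gm or LOC symbols, the usual form for predicted genes, and others to named genes such as Psmc2 and Atg7. Of the 46 windows, 4 lay under exonic peaks of all 3 tables, in exons of Apold1, Il17re, Vsig10l and Zfp648. The first 3 windows below are 3 of those 4, and the last pair belong to NeuN+ peaks of Dlgap3 and Ift57. They were chosen after their values were seen, to show windows under exonic peaks of every sort and windows under a fallen and a risen peak. In each, capitals mark the bases inside the exonic peak of every table that has one there, and the sequence runs 5′ to 3′ on the strand of the start site.
Apold1, window of Gm36428, chr6:134983596-134983895, minus strand: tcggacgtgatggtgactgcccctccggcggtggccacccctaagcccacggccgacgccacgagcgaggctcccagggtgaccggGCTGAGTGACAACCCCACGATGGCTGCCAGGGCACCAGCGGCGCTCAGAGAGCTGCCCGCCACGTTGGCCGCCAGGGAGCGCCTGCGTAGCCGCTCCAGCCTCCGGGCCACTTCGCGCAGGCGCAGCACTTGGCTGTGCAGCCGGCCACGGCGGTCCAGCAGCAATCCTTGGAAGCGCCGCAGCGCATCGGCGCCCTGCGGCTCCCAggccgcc
Il17re, window of Gm52872, chr6:113469555-113469854, minus strand: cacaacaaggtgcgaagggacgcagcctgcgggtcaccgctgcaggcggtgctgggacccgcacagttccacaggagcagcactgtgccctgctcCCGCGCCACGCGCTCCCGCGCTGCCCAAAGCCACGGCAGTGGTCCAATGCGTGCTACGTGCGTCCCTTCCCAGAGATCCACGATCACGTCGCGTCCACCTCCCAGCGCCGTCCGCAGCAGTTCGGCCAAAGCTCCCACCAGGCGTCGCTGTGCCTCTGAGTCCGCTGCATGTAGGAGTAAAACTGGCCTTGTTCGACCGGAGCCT
Zfp648, window of Gm30388, chr1:154205395-154205694, minus strand: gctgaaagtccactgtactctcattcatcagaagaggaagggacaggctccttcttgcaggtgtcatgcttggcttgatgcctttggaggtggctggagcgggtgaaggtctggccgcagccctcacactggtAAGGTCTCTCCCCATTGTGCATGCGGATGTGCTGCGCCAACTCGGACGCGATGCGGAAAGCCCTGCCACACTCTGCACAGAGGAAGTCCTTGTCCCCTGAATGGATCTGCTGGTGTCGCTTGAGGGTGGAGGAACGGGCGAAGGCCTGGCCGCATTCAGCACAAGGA
Dlgap3, window of Gm52707, chr4:127233513-127233812, minus strand: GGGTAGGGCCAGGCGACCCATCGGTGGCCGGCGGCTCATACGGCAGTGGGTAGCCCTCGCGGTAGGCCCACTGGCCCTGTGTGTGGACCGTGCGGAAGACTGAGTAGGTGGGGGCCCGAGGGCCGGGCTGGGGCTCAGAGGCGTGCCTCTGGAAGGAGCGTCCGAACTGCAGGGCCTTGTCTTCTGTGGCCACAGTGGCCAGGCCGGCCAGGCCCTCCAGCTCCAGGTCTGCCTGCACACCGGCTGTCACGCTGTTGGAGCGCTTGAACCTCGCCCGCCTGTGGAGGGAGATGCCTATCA
Ift57, window of Gm52251, chr16:49736551-49736850, plus strand: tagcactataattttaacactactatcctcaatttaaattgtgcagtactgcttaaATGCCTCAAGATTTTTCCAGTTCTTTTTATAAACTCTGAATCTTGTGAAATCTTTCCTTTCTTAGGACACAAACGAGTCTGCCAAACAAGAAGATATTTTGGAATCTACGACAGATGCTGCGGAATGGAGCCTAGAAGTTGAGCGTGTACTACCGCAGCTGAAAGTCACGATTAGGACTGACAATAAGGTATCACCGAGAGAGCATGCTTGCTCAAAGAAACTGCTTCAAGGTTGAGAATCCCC

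The 46 windows had a median of 57.8% G and C and 10 CpG dinucleotides, against 52.7% and 7 over all 32851 RefSeq start-site windows. The palindrome CACGTG, the E-box core bound by the lysosomal regulators TFEB, TFE3 and MITF, was present in 6 of the 46 (13.04%) and in 7.15% of all windows. It was counted over the whole window, which can reach outside the peak, and none of the 5 windows shown holds it. The difference was not tested. Over its 300 bases the Apold1 window had 1 reading frame without a stop codon on the strand of the start site and 2 on the opposite strand. The Il17re window had 2 and 1, the Dlgap3 and Zfp648 windows 0 and 1. The Ift57 window had 0 on both and is the richest in A and T of the 5 shown.

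The Apold1 peak lies in exon 2 of 2 of this gene, which encodes an apolipoprotein L domain protein of endothelial cells. It held 171 and 143.17 normalized tags in the WT microglial libraries and 142.85 and 122 in the SgshKO ones, and was not called. In NeuN+ nuclei it fell from 68.0 and 58.2 to 46.8 and 41.9 tags (log2 change -0.50 ± 0.16, adjusted p = 0.0288). In Olig2+ nuclei it rose from 61.7 and 64.4 to 88.5 and 117 tags (0.68 ± 0.15, adjusted p = 0.00134). The Il17re peak, in the last exon (14 of 14) of an interleukin-17 receptor gene, fell in NeuN+ nuclei from 34.0 and 32.8 to 15.4 and 14.6 tags. The NeuN+ peak of Dlgap3, a postsynaptic scaffold gene, fell from 60.0 and 48.0 to 28.6 and 32.4 tags (-0.80 ± 0.19, adjusted p = 0.00402). Ift57, a gene of intraflagellar transport, went the other way: its NeuN+ peak rose from 11.3 and 12.4 to 25.8 and 33.0 tags (1.23 ± 0.25, adjusted p = 0.00138).

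Microglial libraries held 10771659 to 11804222 tags, NeuN+ libraries 14326703 to 17706971 and Olig2+ libraries 15044194 to 19555924, all scaled by the authors to 10000000. Values below are these normalized tags per peak. A median exonic peak rested on 22 to 35 reads per microglial library, 12 to 21 per NeuN+ library and 20 to 24 per Olig2+ library. Peaks held 55.8% and 48.7% of the tags in WT and 67.4% and 53.7% in SgshKO microglia, 26.7% and 25.9% against 21.5% and 21.2% in NeuN+ nuclei, and 30.9% to 31.8% in all Olig2+ libraries. Start-site peaks were present for 9 of 10 microglia markers in microglia, 10 of 10 neuron markers in NeuN+ nuclei and 10 of 10 oligodendrocyte-lineage markers in Olig2+ nuclei. Start-site peaks were also present for 5 of 10 oligodendrocyte-lineage markers in the NeuN+ sort, which had none for Olig2, Sox10, Mog or Mag, and for 4 of 10 neuron markers in the Olig2+ sort, which had none for Rbfox3, Slc17a7 or Neurod6. In the microglia sort such peaks were present for 6 of 10 oligodendrocyte-lineage, 3 of 10 neuron, 4 of 8 astrocyte and 4 of 8 endothelial markers. Sox10 and Rbfox3 had none there. No exonic peak of Sgsh passed the rule. Of its start-site peaks, which cannot check the genotype, the 1 in NeuN+ nuclei fell from 34.55 and 22.59 to 9.07 and 13.33 tags (log2 change -1.27, adjusted p = 0.00256), and the 2 in microglia (adjusted p = 0.196 and 0.244) and 2 in Olig2+ nuclei (0.653 and 0.146) were not called.

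The exonic peaks were spread over 1653 host genes in the microglia table, 2814 in the NeuN+ table and 1828 in the Olig2+ table. They were narrow, with median widths of 237, 267 and 273 bp. Their median distances to the nearest start site were 6842.5, 7235 and 5748.5 bp. For 33.0%, 41.1% and 36.8% of them the gene that held the exon was not the gene with the nearest start site. Internal exons held 65.7%, 72.7% and 73.9% of the peaks, and last exons of transcripts with several exons 27.8%, 23.7% and 22.2%. Single-exon transcripts held 3.42%, 1.66% and 1.74%. Per kilobase of peak, the median exonic level was 105 tags in microglia against 121 over all peaks and 264 at promoters. In NeuN+ nuclei it was 33.3 against 44.7 and 147, and in Olig2+ nuclei 40.9 against 52.8 and 205. The exonic medians were thus below those of all peaks in every sort.

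More exonic peaks were found in 1 table alone than in several. No peak of another table overlapped 57.4% of the microglial, 65.4% of the NeuN+ and 53.4% of the Olig2+ exonic peaks by 1 bp or more, where all peaks had 60.2%, 59.9% and 51.2%. Peaks of both other tables overlapped 19.0%, 8.92% and 13.2% of the exonic peaks and 22.8%, 19.5% and 25.3% of all peaks. For intronic peaks these shares were 11.9%, 9.90% and 12.7%, and for promoter peaks 64.7%, 64.6% and 71.4%. Between tables, 539 microglial exonic peaks overlapped an exonic NeuN+ peak, which is 26.4% of the microglial and 12.5% of the NeuN+ list.

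Exonic peaks took a smaller share of the tags inside peaks in SgshKO than in WT in microglia and NeuN+ nuclei, and a larger one in Olig2+ nuclei. In microglia the share was 1.77% and 1.87% in the WT libraries and 1.54% and 1.40% in the SgshKO libraries. In NeuN+ nuclei it was 2.57% and 2.56% in WT and 2.19% and 2.15% in SgshKO. In Olig2+ nuclei it was 1.68% and 1.65% in WT and 1.74% in both SgshKO libraries. The genotypes did not overlap in any sort, but with 2 libraries against 2 the smallest p an exact two-sided permutation test allows is 0.333. Other classes moved beside it. The promoter share was 28.3% and 28.4% in WT and 31.7% and 37.3% in SgshKO microglia, 44.8% and 43.9% against 37.3% in both in NeuN+ nuclei, and 44.1% and 43.6% against 46.3% and 46.5% in Olig2+ nuclei. The exonic and promoter shares thus moved in opposite directions in microglia and in the same direction in both nuclei sorts.

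**Figure D1:**
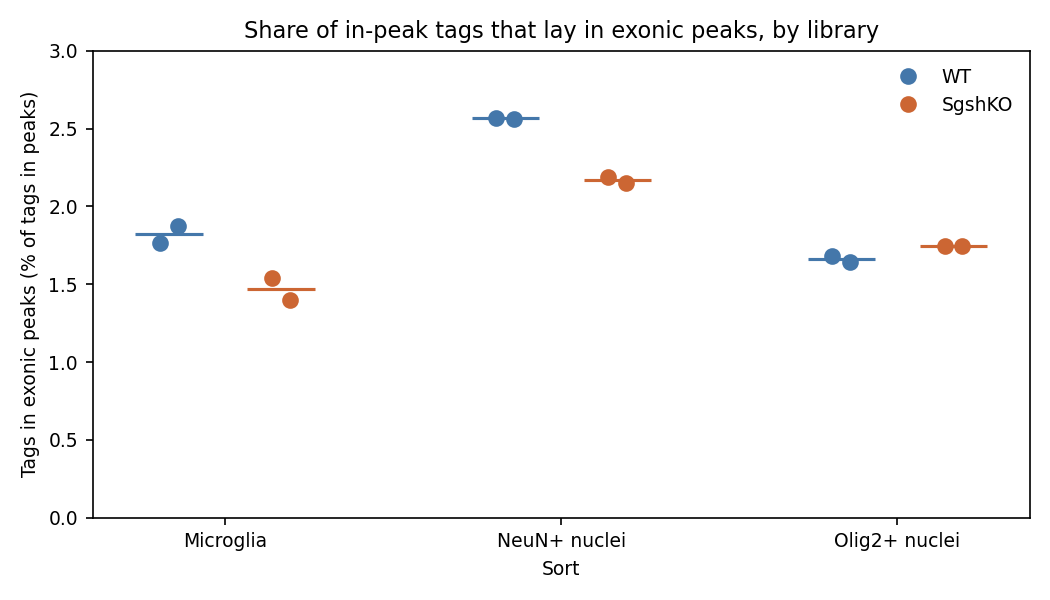
Share of the tags inside peaks that fell in exonic peaks over 1000 bp from a start site (percent, vertical axis) in each of the 12 libraries, with lines at the group means of 2 libraries. SgshKO libraries sit below WT in microglia (1.40% and 1.54% against 1.77% and 1.87%) and NeuN+ nuclei and above WT in Olig2+ nuclei.

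In microglia, exonic peaks were more often lower than higher in SgshKO. The median log2 change was -0.30 over the 2044 exonic peaks and -0.08 over all peaks, and 70.0% of exonic peaks against 55.3% of all peaks had a negative change. With limma over the whole table, 104 exonic peaks (5.09%) were called at an adjusted p under 0.05, where all peaks had 7.37% called. Of the 104, 35 were higher (1.71%, all peaks 5.05%) and 69 lower (3.38%, all peaks 2.33%) in SgshKO. Exons within 1000 bp of a start site had a median of -0.32, introns -0.15 and promoters 0.16. Scaling to the tags inside peaks moved the split to 38 higher (all peaks 5.56%) and 331 lower (all peaks 10.3%). With edgeR on recovered reads it was 83 and 164 (all peaks 10.3% and 5.07%). DESeq2 called fewer and the balance turned, with 31 higher and 14 lower (5.76% and 0.589% of all peaks given an adjusted p). At an adjusted p under 0.01 limma had 14 higher and 13 lower (all peaks 2.45% and 0.523%), and edgeR without WT replicate 2 had 25 and 22 (all peaks 3.49% and 0.837%). Without WT replicate 1 limma called 5 exonic peaks (all peaks 1.26%), and without WT replicate 2 also 5 (all peaks 0.607%), all of them higher. Without SgshKO replicate 2, which had the lower in-peak share, the median was -0.01.

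The largest decreases in microglia included peaks in Per1, Sall1 and C1qa. The peaks named for their change in each sort were picked by its size in these libraries, and the genotypes do not overlap at them, so their sizes describe the picked peaks. The largest among peaks at or above the median level was in exon 19 of 23 of Per1 (chr11:69106746-69106965, mm10), a clock repressor gene that also responds to glucocorticoids. It held 53.6 and 53.4 tags in WT and 8.66 and 19.5 in SgshKO (log2 change -1.95 ± 0.42 SE, n = 2 per group, adjusted p = 0.00261). A peak in exon 21 of 28 of Cep152, a centriole duplication gene, fell from 64.0 and 66.9 to 22.5 and 15.8 tags (-1.74 ± 0.38). Sall1 encodes the transcription factor that maintains microglial identity. Its peak in exon 3 of 4 (chr8:89031526-89031904) fell from 64.8 and 72.0 to 22.5 and 26.0 tags (-1.46 ± 0.37, adjusted p = 0.00962). The last exon of C1qa, the complement component gene that microglia express at high level, fell from 32.0 and 55.9 to 16.4 and 10.2 tags (-1.63 ± 0.43, adjusted p = 0.0145). Eomes, a T-box factor gene, fell from 40.6 and 47.4 to 10.4 and 16.7 tags. The other named decreases were in Zdhhc1, a palmitoyltransferase gene (-1.54), Hip1r, a clathrin adaptor gene (-1.45), and Zfp697, a zinc-finger gene (-1.43).

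The increases in microglia were fewer, and the largest was in exon 22 of 24 of Wwp2 (chr8:107556349-107556678). Wwp2 encodes a ubiquitin ligase and the start site nearest to the peak was that of the microRNA gene Mir140. The peak held 29.4 and 32.2 tags in WT and 173 and 136 in SgshKO (2.28 ± 0.33, adjusted p = 1.4e-05). The last exon of Marchf4, another ubiquitin ligase gene, rose from 50.1 and 44.1 to 166 and 142 tags (1.69 ± 0.31, adjusted p = 0.000476). Exon 10 of 27 of Hdac4, a class II histone deacetylase gene, rose from 17.3 and 15.2 to 79.7 and 47.4 tags. Other large increases were in Snx32 (1.84), Plppr3 (1.80), the erythroid factor gene Klf1 (1.65) and Gpc4 (1.54). Gpc4 encodes glypican 4, a heparan sulfate proteoglycan, and heparan sulfate is the substrate of the enzyme missing in these mice. Its last exon went from 19.9 and 12.7 to 55.4 and 41.8 tags.

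The lists that follow stand against 1.71% higher and 3.38% lower over all microglial exonic peaks, and none of these differences was tested. Homeostatic microglial genes had 13 exonic peaks in 8 genes, of which 3 were lower and 0 higher, with a median of -0.83. Members of that list overlap with the microglia markers. The smallest p was at the last exon of P2ry12, the purinergic receptor of surveying microglia, which held 9.51 and 7.62 tags (11 and 9 reads) in WT and 0.87 and 0 (1 and 0 reads) in SgshKO, with an adjusted p of 0.002. Its fold depends on the pseudocount and is not given. Lysosomal genes had 11 exonic peaks, of which 1 was lower and 0 higher, with a median of -0.01. Disease-associated microglia genes had 5 exonic peaks, 0 called and a median of 0.16, and Cd68, with the smallest p, held 27.6 and 37.3 tags in WT and 71.9 and 28.8 in SgshKO. The start-site tags of the microglia markers summed to 3333 and 2960 in WT and 3572 and 2859 in SgshKO, which overlapped.

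Zinc-finger family genes had 47 microglial exonic peaks, 1 higher and 4 lower, median -0.52, with Zfp385a the smallest p (32.0 and 27.1 against 5.19 and 12.1 tags). Homeobox and other developmental regulators had 47, 0 called and median -0.43, and their smallest p was at the proneural gene Neurog2 (50.1 and 53.4 against 22.5 and 23.2 tags, adjusted p = 0.0573). Immediate-early genes had 13 with 0 called, and the Egr1 peak held 80.4 and 103 against 47.6 and 46.4 tags (adjusted p = 0.0768). Synaptic and ion channel genes had 31, collagens 5, myelin genes 7 and interferon genes 2, all with 0 called. Astrocyte genes had 4 with 1 lower, in Slc1a3, a glutamate transporter gene (27.6 and 15.2 against 5.19 and 7.43 tags). Astrocyte start-site tags summed to 231 and 191 in WT and 243 and 171 in SgshKO microglia, for 4 of 8 markers, with Gfap and Aqp4 without a peak. Clustered protocadherins had 2 peaks with 1 lower, and olfactory receptors 1 with 0 called.

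The strongest exonic peaks of microglia did not pass the test with limma over the 4 libraries. The peak in the last exon, 47 of 47, of Cacna1a, a neuronal calcium channel gene, held 538 and 489 tags in WT and 632 and 470 in SgshKO. Adssl1 had 500 and 478 against 644 and 442, Rai1 440 and 365 against 841 and 406, and Rin2 420.0 and 300 against 397 and 343 tags. In all 4 the genotypes overlapped in these tags, and SgshKO replicate 1 held more tags than replicate 2. The signs of these 4 changes were not stable: all 4 turned negative under quantile normalization, where Cacna1a was called lower (-0.51, adjusted p = 0.0348). Rai1 was called higher with edgeR (0.629, adjusted p = 0.0365), and with limma without SgshKO replicate 2 (1.067, adjusted p = 0.000387).

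In NeuN+ nuclei nearly all called exonic peaks were lower in SgshKO. Of the 4325 exonic peaks 1276 (29.5%) were called, where all peaks had 29.8% called. Of these, 1220 were lower (28.2%, all peaks 19.6%) and 56 higher (1.29%, all peaks 10.2%). The median log2 change was -0.59 against -0.23 over all peaks, and 86.9% of exonic changes were negative against 62.6%. Promoter peaks had a median of -0.54 and introns -0.17, while intergenic peaks had 0.07. Along with these, the in-peak share was lower in SgshKO and the start-site tags of every list with several peaks were lower: neuron markers summed to 994 and 908 in WT and 533 and 538 in SgshKO, astrocyte markers to 199 and 184 against 131 and 133, and oligodendrocyte-lineage markers to 200.0 and 175 against 97.0 and 105. Scaled to the tags inside peaks, 504 exonic peaks were lower (all peaks 8.86%) and 125 higher (all peaks 17.6%), and the exonic median was -0.32 where that of all peaks was 0.05. Fewer nuclei with an open site and less opening per nucleus cannot be told apart in bulk libraries.

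Without either SgshKO library limma called 0 of the NeuN+ exonic peaks, with 1588 and 1478 at an unadjusted p under 0.05, and 0.00% of all peaks. Without the same libraries edgeR called 416 and 352 exonic peaks (all peaks 18.5% and 17.0%). DESeq2 on all 4 libraries called 26, 12 higher and 14 lower (all peaks 2.48% and 2.07%). Of the 29 NeuN+ peaks named here 27 were called, none of them by limma without either SgshKO library, and edgeR without SgshKO replicate 1 or 2 lost 3 and 7.

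The largest NeuN+ decreases included peaks in Atp2b2, Icam5, Emx1 and Ncan. Atp2b2 encodes a plasma membrane calcium pump. Its peak in exon 20 of 24 (chr6:113760528-113760922) held 17.0 and 17.5 tags in WT and 4.89 and 3.17 in SgshKO (-1.88 ± 0.33, adjusted p = 0.000439). Icam5, or telencephalin, an adhesion molecule gene of forebrain dendrites, fell from 20.4 and 23.1 to 7.68 and 4.44 tags in exon 9 of 11 (-1.73 ± 0.31). Emx1 encodes the homeodomain factor of the dorsal forebrain, and its peak in exon 2 of 3 fell from 17.6 and 20.3 to 3.49 and 8.25 tags (-1.63 ± 0.34, adjusted p = 0.00211). Ncan, neurocan of the perineuronal matrix, fell from 15.3 and 15.2 to 4.19 and 4.44 tags (-1.61 ± 0.32). Myh7b, a myosin gene that hosts Mir499, had the largest value and also the widest spread between SgshKO libraries, 14.2 and 16.4 tags against 8.38 and 0.63, where the last is 1 read. Zfp408 (-1.68), the thymic protease gene Prss16 (-1.63) and the CpG-binding ubiquitin ligase gene Fbxl19 (-1.63) completed the 8.

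The 56 increases in NeuN+ nuclei were led by Edrf1 and Ranbp2. Exon 2 of 25 of Edrf1, an erythroid differentiation gene, rose from 2.27 and 3.95 to 14.0 and 19.1 tags (2.11 ± 0.35, adjusted p = 0.000315). Ranbp2, a nuclear pore gene, rose from 3.40 and 6.78 to 23.03 and 13.97 tags in exon 20 of 29. Mdn1, a ribosome assembly gene, rose from 13.6 and 11.9 to 44.7 and 32.4 tags in exon 81 of 102. Oca2, a melanosomal transporter gene, rose from 13.03 and 11.3 to 34.2 and 34.9 tags (1.44 ± 0.23, adjusted p = 0.000236). The giant muscle gene Neb (1.30), the nucleotide hydrolase gene Samhd1 (1.23), Ift57, whose window is printed above, and the chaperone gene Dnajc18 (1.19) followed.

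Synaptic and ion channel genes held the most NeuN+ exonic peaks of the lists examined. They had 157 peaks in 46 genes, of which 58 were lower and 0 higher, median -0.72. Its smallest p was at the strongest exonic peak of the table, in the last exon of Cacna1a (chr8:84639455-84639705), the gene of the P/Q-type calcium channel. That peak fell from 497 and 469 to 237 and 206 tags (-1.13 ± 0.08, adjusted p = 9.1e-08). The zinc-finger family had 112 peaks, 39 lower and 1 higher, median -0.67. Its smallest p was at Zfp697, exon 3 of 3, which fell from 137 and 129 to 49.6 and 55.9 tags (-1.32 ± 0.13, adjusted p = 2.8e-06). Developmental regulators had 38 with 14 lower (median -0.78), led by Lhx2, a cortical patterning gene, which fell from 34.0 and 27.7 to 11.9 and 12.1 tags. All exonic peaks had 28.2% lower, so the shares of these lists, 36.9%, 34.8% and 36.8%, stood above that, and the differences were not tested.

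The other lists had 15 peaks or fewer. Lysosomal genes had 14 NeuN+ exonic peaks with 4 lower and median -0.74. Atp6v0a1, a subunit of the vacuolar proton pump, fell from 11.3 and 8.47 to 4.89 and 1.27 tags. Immediate-early genes had 15 with 5 lower, of which Jund fell from 29.5 and 30.5 to 14.0 and 12.1 tags. Myelin genes had 11 with 2 lower, including Plekhg3 (9.63 and 10.7 against 1.40 and 2.54 tags). Homeostatic microglial genes had 5 with 1 lower, the last exon of Spi1, which encodes the myeloid factor PU.1. It fell from 48.7 and 44.1 to 25.1 and 22.9 tags, while 9 of the 10 microglia markers had no start-site peak in this sort. Collagens had 3 with 1 lower, in Col9a2, interferon genes 2 with 1 lower, and astrocyte genes 2 with 0 called. Clustered protocadherins had 7 with 0 called and a median of 0.23, and Pcdhgc4 held 10.2 and 11.9 against 15.4 and 21.6 tags (adjusted p = 0.0702). Disease-associated microglia genes and olfactory receptors had 0 exonic peaks.

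The other strong NeuN+ exonic peaks also fell. Carns1, which makes carnosine, fell in exon 9 of 10 from 338 and 325 to 175 and 216 tags (-0.77 ± 0.09, adjusted p = 1.7e-05). Angptl6, an angiopoietin-like gene, fell in exon 2 of 6 from 280 and 279 to 206 and 205 tags (-0.44 ± 0.08). Sft2d3, a single-exon gene of vesicle traffic, fell from 265 and 239 to 186 and 170 tags (-0.50 ± 0.09). The values of Angptl6 and Sft2d3 turned positive under quantile normalization, at 0.13 and 0.07, and did not pass the test there.

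In Olig2+ nuclei the exonic peaks moved the other way on balance. Of the 2810, 507 (18.04%) were called, where all peaks had 19.8% called. Of these, 295 were higher (10.5%, all peaks 8.17%) and 212 lower (7.54%, all peaks 11.7%). The median log2 change was 0.10 against -0.07 over all peaks, and 42.7% of exonic changes were negative against 55.6%. Introns had a median of -0.15 and promoters 0.05. The in-peak shares of the genotypes overlapped, and oligodendrocyte-lineage markers summed to 3124 and 3091 tags in WT and 2681 and 2705 in SgshKO. Leaving out WT replicate 2 gave 154 calls, 99 higher and 55 lower (all peaks 3.88% and 3.49%), and leaving out WT replicate 1 gave 182, 134 and 48 (all peaks 3.78% and 3.68%). DESeq2 called 54, 35 higher and 19 lower (5.21% and 3.39% of all peaks given an adjusted p). Without SgshKO replicate 2 the balance was lost, with 245 higher and 247 lower (all peaks 6.56% and 12.3%), and at an adjusted p under 0.01 there were 95 and 89 (all peaks 3.69% and 5.30%). The balance toward higher peaks was larger with other scalings. Median of ratios gave 377 higher and 170 lower (all peaks 10.7% and 9.47%), quantile normalization 347 and 121 (8.89% and 7.81%), and edgeR 415 and 183 (11.6% and 10.1%).

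The increases in Olig2+ nuclei were led by Prickle3 and Fyco1. Fyco1 encodes an adaptor that moves autophagosomes and late endosomes along microtubules. Its peak in exon 7 of 19 (chr9:123833030-123833344) held 11.9 and 10.2 tags in WT and 39.96 and 45.2 in SgshKO (1.85 ± 0.24, adjusted p = 1.5e-06). Prickle3, a planar polarity gene on the X chromosome, rose from 3.63 and 9.20 to 22.1 and 25.9 tags (1.86 ± 0.33). Erf, an ETS repressor gene, rose in its last exon from 9.34 and 13.3 to 36.3 and 31.9 tags (1.53 ± 0.25, adjusted p = 7.4e-05). Kifc2, a kinesin gene, rose from 14.0 and 13.8 to 46.1 and 37.2 tags in exon 15 of 18. Kdm6b, a histone H3 lysine demethylase gene, rose from 23.3 and 13.8 to 39.96 and 54.5 tags in exon 11 of 23. Prrt1 (1.40), the apoptosis gene Bbc3 (1.36) and the ephrin gene Efna2 (1.31) completed the 8.

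The decreases in Olig2+ nuclei were led by Plin4 and Itm2b. Plin4, a lipid droplet coat gene, fell in exon 6 of 9 (chr17:56103781-56104065) from 19.7 and 32.7 to 4.30 and 5.32 tags (-2.19 ± 0.32, adjusted p = 1e-05). Sgk1, a kinase gene induced by glucocorticoids, fell in exon 9 of 12 from 26.4 and 32.7 to 6.15 and 12.6 tags (-1.62 ± 0.29, adjusted p = 0.000195). Ell, a subunit of the transcription elongation machinery, had the highest level of the 8 and fell in exon 6 of 12 from 145 and 160 to 62.7 and 51.9 tags (-1.40 ± 0.13, adjusted p = 7.5e-09). Itm2b (-1.77), the telomere gene Terf2 (-1.58), the deubiquitinase gene Otulin (-1.44), the adhesion gene Dscam (-1.27) and BC004004 (-1.26) were the others. The WT libraries of Otulin held 18.7 and 35.3 tags, against 11.7 and 6.65 in SgshKO.

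Among all Olig2+ exonic peaks 10.5% were higher and 7.54% lower, and the lists that follow were not tested against these shares. Myelin and oligodendrocyte genes had 79 exonic peaks in 35 genes in Olig2+ nuclei, with 5 higher and 5 lower and a median of 0.07. Cldn11, a tight junction gene of the myelin sheath, fell in its last exon from 47.2 and 45.0 to 25.2 and 24.6 tags (-0.86 ± 0.20, adjusted p = 0.00249). Lysosomal genes had 15 with 1 higher and 1 lower, median 0.24. The increase was in Idua, the lysosomal iduronidase that also degrades heparan sulfate, where exon 7 of 14 rose from 4.67 and 6.14 to 14.1 and 17.9 tags (1.41 ± 0.33, adjusted p = 0.00269). Zinc-finger family genes had 82 with 11 higher and 8 lower, and Zbtb16 fell from 11.9 and 12.8 to 1.84 and 3.32 tags. Developmental regulators had 15 with 3 higher and 2 lower, and the single exon of Sox2, a neural progenitor factor gene, rose from 15.04 and 11.8 to 28.9 and 29.2 tags (1.07 ± 0.25, adjusted p = 0.00285).

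The remaining lists in Olig2+ nuclei split evenly or were small. Synaptic and ion channel genes had 33 with 3 higher and 3 lower, among them the GABA-B receptor gene Gabbr2, which fell from 16.6 and 16.4 to 6.15 and 1.99 tags. Immediate-early genes had 10 with 1 of each, and Homer1, a synaptic scaffold gene, fell from 9.85 and 14.8 to 4.30 and 2.66 tags. Disease-associated microglia genes had 8 with 1 of each, and Ank fell from 8.82 and 9.20 to 3.07 and 3.99 tags. Interferon genes had 3 with 1 lower, in Stat2, and collagens 6 with 0 called, with Col17a1 at 9.34 and 5.11 against 9.22 and 9.31 tags. Protocadherins had 2 with 1 higher, homeostatic microglial genes 2 and astrocyte genes 1 with 0 called, and olfactory receptors had 0 peaks.

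The strongest Olig2+ exonic peaks went both ways. Angptl6 rose in exon 2 of 6 from 448 and 399 to 565 and 598 tags (0.46 ± 0.06, adjusted p = 7.2e-06). Polr3e, an RNA polymerase III subunit gene, fell in exon 18 of 21 from 352 and 348 to 162 and 169 tags (-1.08 ± 0.08, adjusted p = 1.4e-10). Chmp7, an ESCRT gene, fell from 395 and 398 to 300.04 and 322 tags (-0.35 ± 0.07). Cacna1a, the strongest exonic peak of the microglial and NeuN+ tables, held 343 and 344 against 358 and 403 tags (0.15 ± 0.07, adjusted p = 0.158).

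**Figure D2:**
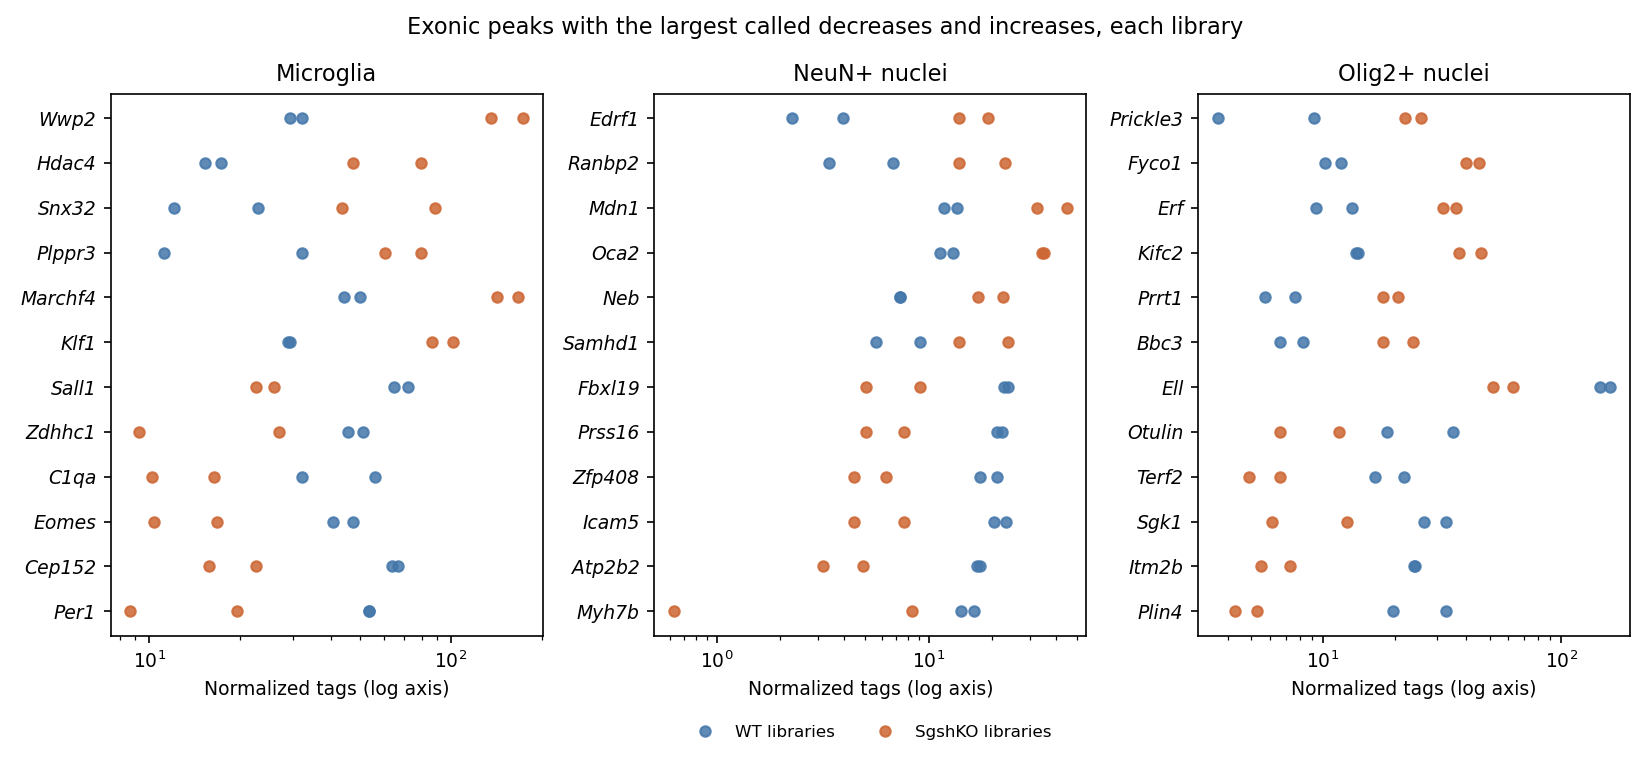
Normalized tags per peak (log axis) in every library for the 6 largest decreases and 6 largest increases among called exonic peaks of each sort, with WT and SgshKO libraries as separate points. The SgshKO and WT points of a row do not overlap, and the microglial Wwp2 peak goes from 29.4 and 32.2 to 173 and 136 tags.

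Exonic peaks stood lower in microglia and NeuN+ nuclei and higher in Olig2+ nuclei than intronic ones. This was not particular to exons away from start sites. Exons within 1000 bp had medians of -0.32 in microglia, -0.63 in NeuN+ and 0.18 in Olig2+ nuclei. Peaks in 5' UTR had -0.16, -0.59 and 0.11 in the same order. Relative to all peaks the exonic median stood at -0.22 in microglia, at -0.36 in NeuN+ nuclei and at 0.18 in Olig2+ nuclei. In genes with both kinds of peak, the median exonic change lay below the median intronic one in 61.3% of 1223 genes in microglia and 68.7% of 2224 in NeuN+ nuclei, and in 42.9% of 1423 in Olig2+ nuclei. Against promoters of the same genes it lay below in 73.1% of 1158 microglial genes, in 49.8% of 2233 genes for NeuN+ and in 50.8% of 1443 for Olig2+ nuclei. In NeuN+ nuclei the exonic change was thus below that of introns in most genes and split evenly against promoters. These shares have no test, since peaks of 1 library are not replicates.

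**Figure D3:**
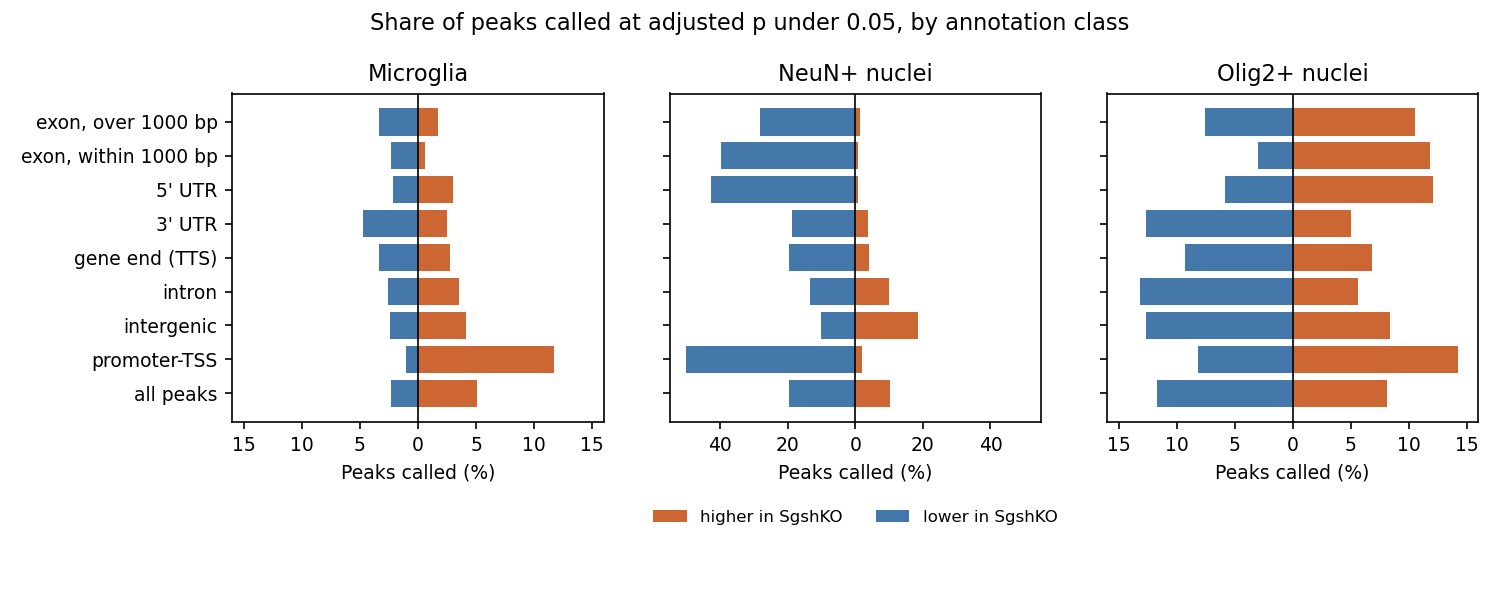
Percent of peaks called higher or lower in SgshKO (horizontal axis) for each annotation class in the 3 sorts, with a wider axis for NeuN+ nuclei. Exonic peaks have 3.38% lower in microglia, 28.2% lower in NeuN+ nuclei and 10.5% higher in Olig2+ nuclei, and promoters reach 50.1% lower in NeuN+ nuclei.

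The distance to the start site went with the change in Olig2+ nuclei. Exonic peaks at 1000 to 2000 bp had a median of 0.20 and those at 2000 to 5000 bp 0.24. At 5000 to 20000 bp the median was 0.08, at 20000 to 100000 bp -0.19, and beyond 100000 bp -0.38 over 58 peaks. Called exonic peaks were 11.1% higher and 2.17% lower in the nearest range and 5.17% higher and 24.1% lower in the farthest. Intronic peaks had medians of 0.01, -0.05, -0.17, -0.24 and -0.24 in the same order. In NeuN+ nuclei the exonic medians stayed between -0.63 and -0.47 at every distance, while the intronic ones went from -0.30 near the start site to 0.17 beyond 100000 bp. In microglia the exonic medians lay between -0.35 and -0.27 without an order.

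**Figure D4:**
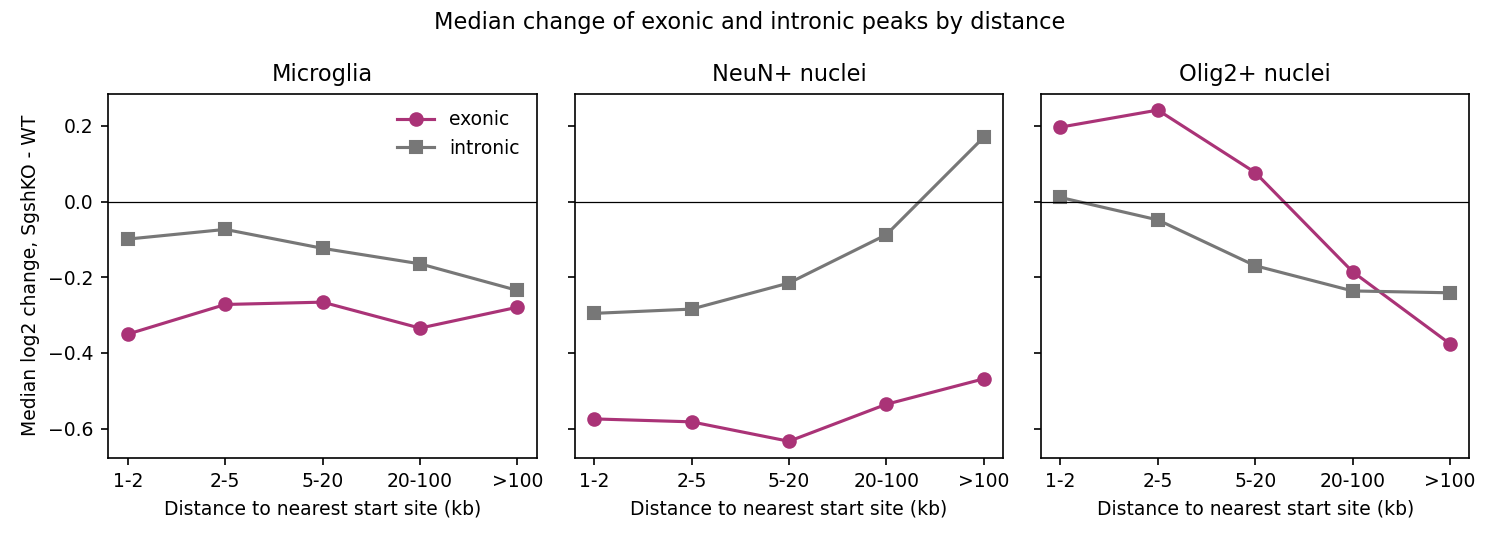
Median log2 change (SgshKO minus WT, vertical axis) of exonic and intronic peaks in 5 ranges of distance from the start site in the 3 sorts. Exonic medians stay near -0.59 in NeuN+ nuclei and go from 0.20 to -0.38 in Olig2+ nuclei.

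The level of a peak also went with its change in microglia. In the lowest 25% of all peaks by level, the 553 exonic peaks had a median of -0.60, and in the highest 25% the 382 had -0.02. Intronic peaks had -0.40 and 0.08 there. In NeuN+ nuclei the exonic medians of the 4 level groups, from low to high, were -0.74, -0.51, -0.46 and -0.55. In the highest group 49.5% of the 501 exonic peaks and 25.3% of the intronic peaks were lower in SgshKO. For intronic peaks this share was also the largest of the level groups, after 13.6%, 8.31% and 11.1% from low to high. In Olig2+ nuclei the exonic medians were 0.04, 0.13, 0.14 and -0.03. Microglial exonic peaks that overlapped peaks of both other tables had a median of -0.27. In NeuN+ nuclei 47.7% of the 386 such peaks were lower, against 25.2% of the 2827 found in that table alone, and the median tags of the former were higher (18.7 against 9.09).

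Several host genes held many exonic peaks, which share a transcript and in part an exon. In microglia Per1 and Ddx3x held 6 each, and Akap13, Icam5, Prr36 and Sall1 held 5. All 6 Per1 peaks were lower in both SgshKO libraries, and 4 were called. Their sum was 231 and 219 tags in WT and 83.1 and 84.5 in SgshKO. The 4 promoter peaks of Per1 had a median change of -0.19 and 0 were called. All 6 peaks of Ddx3x, an RNA helicase gene on the X chromosome, had positive changes and 0 were called, with sums of 64.0 and 44.9 against 127 and 105 tags. Its 7 intronic peaks had a median of 1.25 and 4 were called higher. The 5 Sall1 peaks all had negative changes with 1 called, and their sum was 174 and 178 in WT and 114 and 84.5 in SgshKO.

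In Olig2+ nuclei 7 exonic peaks lay in Per1, 6 with a positive change and 1 called higher, and their sum was 105 and 96.1 in WT and 127 and 128 in SgshKO. In NeuN+ nuclei Per1 held 3, which were negative, with 2 called. The exon 19 peak was called lower in microglia, and in the nuclei sorts it passed the limma threshold only narrowly. In NeuN+ nuclei it was lower (10.8 and 11.9 against 8.38 and 2.54 tags, adjusted p = 0.0472). In Olig2+ nuclei it was higher (adjusted p = 0.0479). Outside microglia these Per1 counts were chosen after their values were seen.

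**Figure D5:**
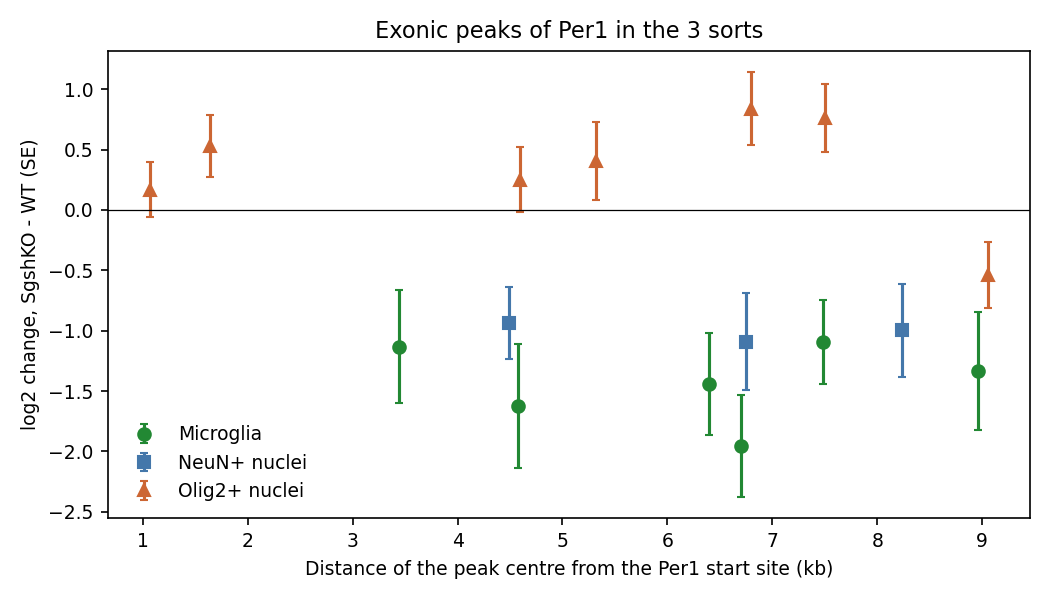
Log2 change (SgshKO minus WT, vertical axis, bars are the standard error) of each exonic peak of Per1 by its distance from the start site in the 3 sorts. The 6 microglial peaks lie between -1.95 and -1.09, and 6 of the 7 Olig2+ peaks lie above 0.

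In NeuN+ nuclei Bsn, Sptbn4 and Lrp1 held the most exonic peaks. Bsn, which encodes the active zone scaffold bassoon, held 16 exonic peaks in 3 exons, of which 6 were lower. Their sum was 274 and 246 tags in WT and 152 and 154 in SgshKO. The strongest, in exon 5 of 12, fell from 57.8 and 57.6 to 30.0 and 28.6 tags. Sptbn4, the spectrin of axon initial segments, held 13 in 11 exons, all negative, with 10 lower and sums of 270 and 307 against 165 and 152. Its exon 33 peak fell from 115 and 138 to 79.6 and 75.5 tags. Lrp1, an endocytic receptor gene, held 12 in 12 exons, all negative, with 3 lower and sums of 158 and 136 against 91.4 and 80.0. Of the 343 genes with 3 or more exonic peaks in NeuN+ nuclei, 251 had negative changes alone and 1 positive changes alone. Over all NeuN+ exonic peaks 86.9% of changes were negative, and the gene counts were not tested against that share.

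The hosts in Olig2+ nuclei were less uniform. Dst, the cytoskeletal linker dystonin, held 11 with 1 higher and sums of 471 and 486 against 480 and 532 tags, which overlapped. Cspg4 encodes NG2, the proteoglycan of oligodendrocyte precursors. It held 10, all with positive changes, 2 of them called, and sums of 166 and 156 against 221 and 201. Map1a, a microtubule-associated protein gene, held 10 with 0 called and sums of 133 and 132 against 121 and 118. Of 231 genes with 3 or more, 84 had positive changes alone and 25 negative changes alone. In microglia 36 of 70 such genes had negative changes alone and 7 positive changes alone. Negative changes made up 42.7% of all Olig2+ and 70.0% of all microglial exonic changes. The gene counts were not tested against these shares.

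Neighbouring peaks within 1 exon had changes of the same sign in 76.1% of 142 pairs in the microglia table, 81.7% of 311 in the NeuN+ table and 68.4% of 225 in the Olig2+ table. Over all possible pairs of exonic peaks in a table the share was 57.9%, 77.2% and 51.0%, and the NeuN+ value lay nearest to it. Both peaks of a pair were called the same way in 3, 37 and 19 pairs and in opposite ways in 1, 0 and 0. The 1 opposite pair lies in exon 3 of Zfp697 in microglia, with 40 bp between the peaks, and was chosen after its values were seen. The peak at chr3:98427555-98427793 rose from 101 and 82.2 to 170 and 205 tags (1.03 ± 0.29, adjusted p = 0.0245). Its neighbour at chr3:98427834-98428058 fell from 44.1 and 44.0 to 19.1 and 13 tags (-1.43 ± 0.41, adjusted p = 0.0249).

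To compare genotype changes between sorts, 16761 peaks that matched one to one in all 3 tables (reciprocal overlap of 50%) were fitted in 1 model, and 212 of them are exonic. The change differed between NeuN+ and Olig2+ nuclei at 57 of the 212 (26.9%, all peaks 31.7%), with 56 lower and 1 higher in NeuN+ nuclei. Between microglia and NeuN+ nuclei it differed at 36 (17.0%, all peaks 42.5%), with 32 higher and 4 lower in microglia. Between microglia and Olig2+ nuclei it differed at 25 (11.8%, all peaks 21.6%), with 7 higher and 18 lower in microglia. The median difference was -0.65 for NeuN+ minus Olig2+ (all matched peaks -0.50). It was 0.39 for microglia minus NeuN+ (all 0.60) and -0.25 for microglia minus Olig2+ (all 0.17). With the deposited scaling the exonic shares were below the background in each pair. With scaling to the tags inside peaks the counts were 23 (10.8%, all peaks 13.7%), 22 (10.4%, all peaks 27.7%) and 46 (21.7%, all peaks 19.3%), and the last was above its background. The direction between microglia and NeuN+ nuclei did not hold. It became 10 higher and 12 lower with that scaling, and 8 and 17 with median-of-ratios scaling (all peaks 27.7% called).

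Irf2bpl, a single-exon gene of a nuclear zinc-finger protein linked to childhood neurological regression, showed the largest difference. Its peak near chr12:86882820-86883044 fell in NeuN+ nuclei from 54.4 and 51.4 to 27.2 and 18.4 tags and rose in Olig2+ nuclei from 2.59 and 5.62 to 12.3 and 16.6 tags. In microglia it held 97.7 and 101 against 92.6 and 95.6. The difference of the log2 changes was -2.85 ± 0.41 (adjusted p = 8.5e-05). Zfp697 rose in microglia, as above, and fell in NeuN+ nuclei, a difference of 2.35 ± 0.26 (adjusted p = 1.2e-07), and its Olig2+ values were 30.6 and 26.6 against 31.4 and 33.9 tags. Plvap, a gene of endothelial fenestrae, fell in NeuN+ nuclei from 102 and 93.8 to 61.4 and 59.0 tags and rose in Olig2+ nuclei from 11.4 and 13.8 to 25.2 and 28.6. Endothelial markers had a start-site peak for 1 of 8 genes in NeuN+ nuclei, 0 of 8 in Olig2+ nuclei and 4 of 8 in microglia.

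With the deposited scaling Kank3 and Angptl6 rose in microglia and fell in NeuN+ nuclei. Their NeuN+ changes were -0.38 and -0.44, where the median over all NeuN+ peaks was -0.23. The NeuN+ value of Angptl6 turned positive under quantile normalization (0.128). Kank3, an actin regulator gene, went from 225 and 173 to 438 and 395 tags in microglia and from 210 and 192 to 142 and 166 in NeuN+ nuclei (difference 1.46 ± 0.20). Angptl6 went from 224 and 179 to 340 and 474 tags in microglia (difference to NeuN+ nuclei 1.44 ± 0.20). Tpbgl, a leucine-rich repeat gene, fell in microglia from 170 and 160 to 72.7 and 78.0 tags and rose in Olig2+ nuclei from 34.8 and 31.2 to 49.8 and 51.2 (difference -1.72 ± 0.28, adjusted p = 0.000105). Jph4, a junctophilin gene, held 52.7 and 50.8 against 28.6 and 24.1 tags in microglia and rose from 19.2 and 20.4 to 38.1 and 33.2 in Olig2+ nuclei (-1.77 ± 0.37). Per1 exon 19 rose in Olig2+ nuclei from 9.34 and 8.18 to 13.5 and 19.9 tags, a difference of -2.79 ± 0.58 from the microglial change (adjusted p = 0.00119).

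The peaks nearest to the distance limit are given as a description. In microglia Kctd1, at 1001 bp, held 15.6 and 21.2 tags in WT and 6.06 and 6.5 in SgshKO, and Lemd3, at 999 bp, 25.1 and 31.3 against 36.4 and 27.8. In NeuN+ nuclei Lemd3, at 1001 bp, held 19.8 and 15.2 against 12.6 and 13.3, and Rita1, at 1000 bp, 11.9 and 14.7 against 11.9 and 11.4. In Olig2+ nuclei Sox2, at 1001 bp, has its values above, and Smarcd1, at 996 bp, held 34.8 and 31.2 against 27.7 and 49.9.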

How the data were processed

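ATAC-seq libraries of 6 groups, 2 per group, were analysed from 3 deposited tables, 1 per sort. The deposited signal counts tags in each peak, which per the file headers were scaled to a total of 10000000 tags per library. Bowtie2, HOMER and build mm10 are named in the submitters' processing notes; the peak caller, read shift and handling of duplicates were not stated in the sources. Dividing out the scaling gave whole reads for 100% of values within 0.01.

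The members and lists were chosen with earlier results of these data known. The host gene was that of the transcript in the authors' annotation, found for 2035, 4315 and 2799 of the microglial, NeuN+ and Olig2+ members in the RefSeq gene table of GRCm38.p6; otherwise the nearest gene was used. Within each table, log2(normalized tags + 1) of every peak was compared with limma 3.58.1 in R 4.3.3 (lmFit, eBayes with trend, two-sided), with Benjamini-Hochberg adjustment over the table and a threshold of 0.05. Changes are SgshKO minus WT on that scale, which understates low peaks, and ± is the standard error. No peak was filtered out. Peaks matched across tables entered 1 limma model of 12 libraries, which share 1 estimate of spread.

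In each table the peaks named were the 8 largest increases and 8 largest decreases among called members at or above the members' median level, at most 1 per host. To these were added the 4 with the highest WT mean, the 3 hosts with most members, the smallest p of each list with at least 3 members, and the 3 smallest p per pair of sorts. In microglia 2 of these peaks are not reported here. Alternatives were pseudocounts of 0.5 and 5, the lowest 25% of peaks left out, 3 other scalings, thresholds of 0.01 and 2000 bp, the replicate number as a block, each library left out, and tests of recovered reads with edgeR 4.0.16 and DESeq2 1.42.0; edgeR without each library and the alternatives of the 12-library model were added after the data were seen. In simulated data 200 peaks per table were changed, all drawn from peaks at or above the table's median level. In the microglial (91770), NeuN+ (107627) and Olig2+ (82577) tables limma recovered 100%, 91.0% and 99.0% of 4-fold changes. For 2-fold changes it recovered 31.0%, 38.0% and 72.0%. Recovery at lower peaks was not simulated, and the median exonic level lay below the median of all peaks in every sort. GC content and motifs of the peaks need a genome and were not run.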

Additional observations from a re-analysis of the deposited data

Results flagged for a closer look

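At 9 differences on 8 shared exonic peaks the genotype change differed between sorts by a test of the difference itself, in limma over 12 libraries. NeuN+ minus Olig2+, the difference of log2 changes was -2.85 at Irf2bpl, -1.51 at Zfp697 (adjusted p = 0.000286) and -1.73 at Plvap (adjusted p = 0.000448). Microglia minus NeuN+, it was 2.35 at Zfp697, 1.46 at Kank3 and 1.44 at Angptl6. Microglia minus Olig2+, it was -1.72 at Tpbgl, -1.77 at Jph4 and -2.79 at Per1. Each of the 9 passed the threshold under all 14 alternatives, with adjusted p-values for Irf2bpl from 3.0e-06 to 0.00245 and for Per1 from 3.5e-05 to 0.0131. They were picked as the smallest p-values among 212 exonic peaks.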

How the results depend on the processing

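The median change of exonic peaks kept its sign in each sort under every alternative run, while the number of calls did not hold. The microglial count of 104 became 369 with scaling to the tags inside peaks, 193 with median-of-ratios scaling, 184 with quantile normalization, 247 with edgeR, 45 with DESeq2 and 27 at an adjusted p under 0.01. Leaving out 1 microglial library gave 5 (either WT library) to 465 calls with limma and 47, 62, 312 and 452 with edgeR, and medians from -0.523 to -0.011, or -0.291 to -0.175 with edgeR. The NeuN+ count of 1276 (all peaks 29.8%) became 838 without the lowest 25% of peaks (32.0% of all peaks kept). It was 629 with in-peak scaling (all peaks 26.5%) and 756 with median-of-ratios scaling (all peaks 26.1%). With quantile normalization it was 544 (all peaks 15.5%), with edgeR 784 (all peaks 27.4%) and with DESeq2 26 (all peaks 4.55%). At an adjusted p under 0.01 the NeuN+ count was 452 (all peaks 4.94% higher and 9.69% lower). Its median became -0.423 with a pseudocount of 5 and, in the same order from the lowest 25% to DESeq2, -0.50, -0.316, -0.391, -0.492, -0.405 and -0.41. Leaving out 1 NeuN+ library gave 0 (either SgshKO library, with 1588 and 1478 at an unadjusted p under 0.05) to 287 calls with limma and 299, 352, 385 and 416 with edgeR, and medians from -0.602 to -0.529, or -0.424, -0.40, -0.389 and -0.386 with edgeR. The Olig2+ count of 507 (all peaks 19.8%) became 54 with DESeq2 (8.60% of all peaks given an adjusted p). At an adjusted p under 0.01 the Olig2+ count was 184 (all peaks 3.69% higher and 5.30% lower). Its median became 0.166 with median-of-ratios scaling, 0.183 with quantile normalization and with DESeq2, 0.179 with edgeR and 0.077 over 2000 bp from the start site. Leaving out 1 Olig2+ library gave 154 to 492 calls with limma and 279, 321, 345 and 385 with edgeR, and medians from 0.079 to 0.13, or 0.16, 0.17, 0.178 and 0.195 with edgeR. In the model across sorts the NeuN+ minus Olig2+ count became 23 with in-peak and 13 with median-of-ratios scaling and ranged from 30 to 73 without 1 library. The microglia minus NeuN+ count became 22 with in-peak scaling and ranged from 23 to 54, and the microglia minus Olig2+ count became 46 and 42 with these scalings and ranged from 15 to 39. Where DESeq2 gave no adjusted p, none was counted. With median-of-ratios scaling 10.4% of all matched peaks were called for NeuN+ minus Olig2+ and 21.3% for microglia minus Olig2+. The cause of the differences between settings was not tested.

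Single peaks whose change turned sign were not called in the main comparison, except Angptl6 (0.128) and Sft2d3 (0.070) in NeuN+ nuclei with quantile normalization. In microglia Cacna1a became -0.12 with in-peak scaling, -0.51 with quantile normalization (called, adjusted p = 0.0348) and -0.127 without SgshKO replicate 1. In the same settings Adssl1 became -0.08, -0.458 and -0.144, and Rin2 -0.151, -0.453 and -0.047. Rin2 also became -0.186 without WT replicate 2 (-0.034 with edgeR) and -0.017 with edgeR without SgshKO replicate 2. Without 1 library these 3 reached at most 0.30, 0.398 and 0.298. Rai1 became -0.029 with quantile normalization, Cd68 -0.153 (up to 1.138 without SgshKO replicate 2) and, with edgeR, Col6a3 0.095 without SgshKO replicate 1, and Olig2+ Col17a1 -0.011 without WT replicate 2 (0.748 without WT replicate 1). In microglia, 18 and 17 of the 20 called peaks chosen by the naming rule were no longer called by limma without WT replicate 1 or 2, and 4 and 7 with edgeR.

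Peak by peak, same-numbered libraries did not deviate together (correlations over peaks of 0.0564, 0.00416 and 0.00505 in microglia, NeuN+ and Olig2+ nuclei). A shift shared by all peaks of a library cannot show in these correlations. In microglia replicate 1 had the larger in-peak share in both genotypes (55.8% against 48.7% in WT, 67.4% against 53.7% in SgshKO). Whether the replicate number marks a batch was not tested. With the replicate number as a block, limma called 267 exonic peaks in microglia (all peaks 15.8%). It called 1452 in NeuN+ (all peaks 33.2%) and 554 in Olig2+ nuclei (all peaks 21.4%). Depth limits the lowest peaks, with a median of 12 reads in the shallowest NeuN+ library. In simulated data 31.0% and 38.0% of 2-fold changes were recovered in microglia and NeuN+ nuclei. Those changes were placed only in peaks at or above the table's median level, so recovery at the lowest peaks was not measured.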
